A study of Mus musculus with 24 samples.

Results

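The 10 genes described here encode interleukin-15, the chains of its receptor, and the killing and interferon products of cytotoxic lymphocytes, in mice with peritonitis treated with β-nicotinamide mononucleotide (β-NMN), a precursor of NAD+. They were taken by symbol (Il15, Il15ra, Il2rb, Il2rg, Gzma, Gzmb, Prf1, Klrk1, Nkg7 and Ifng), and all 10 were found among the 54658 symbols of both count tables. In stimulated peritoneal cells, β-NMN went with more Il15 and Il15ra RNA and with less RNA of Il2rb, Il2rg, Gzma, Gzmb, Prf1, Nkg7 and Ifng, while Klrk1 was not called. In hearts and lungs of septic mice, where 4 and 9 of the 10 genes could be tested, edgeR called none of them and no other gene.

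Interleukin-15 is a cytokine that keeps natural killer (NK) cells and memory CD8 T cells alive and active. It is made mainly by macrophages, dendritic cells and stromal cells, which hold it on the α chain of its receptor (Il15ra) and present it to neighbouring lymphocytes. Those lymphocytes read it through the β chain (Il2rb) and the common γ chain (Il2rg), which signal through JAK kinases and STAT5. Cytotoxic lymphocytes kill by releasing granules, in which perforin (Prf1) opens the way for granzymes A and B (Gzma, Gzmb), and Nkg7 encodes a granule membrane protein needed for full release. The receptor NKG2D (Klrk1) recognises stress-induced ligands on target cells, and interferon-γ (Ifng) activates macrophages.

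All mice were male C57BL/6 animals aged 7 to 12 weeks. In the thioglycollate (TGC) model, 1 mL of this sterile irritant was injected into the peritoneal cavity, the mice were given saline (vehicle) or a daily β-NMN dose of 185 mg/kg, and their lavaged peritoneal cells were stimulated with live E. coli for 6 h (6 libraries per group). In the cecal ligation and puncture (CLP) model, in which gut contents leak and cause sepsis, hearts and lungs were taken from 3 vehicle-treated and 3 β-NMN-treated mice, both organs from the same animals. They were taken 24 h after surgery. These β-NMN mice had received only 1 dose of 185 mg/kg, given right after the surgery. In both models the last dose preceded sacrifice by 24 h, and neither unstimulated cells nor mice without peritonitis were analysed here. The source labels of the organs name thioglycollate, whereas the titles, tissue labels and methods name CLP. The titles give the number 3 to both of a pair of β-NMN hearts, of which the one from the mouse of lung 2 was numbered 2.

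Total counts were 31126823 to 112456050 per peritoneal library, 27319513 to 68523239 per heart and 8915366 to 28356786 per lung. The tissues carried their own markers. The summed level of 6 macrophage genes was 5442 to 11820 CPM (counts relative to the library total after TMM scaling) in peritoneal cells. That of 4 cardiomyocyte genes was 30943 to 47718 CPM in hearts, and that of 4 lung epithelial genes was 50942 to 93714 CPM in lungs. Vehicle replicate 2 stood apart in both organs. Its log2 CPM differed from the mean of the other libraries of its group with a standard deviation (SD) over genes of 0.898 in heart and 1.62 in lung, against at most 0.606 and 0.923 in the other libraries.

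The windows of 250 bases before the start of the RefSeq transcripts (GRCm38.p6) are shown for the granule and interferon genes of this set that fell together in peritoneal cells and whose window lies before the RefSeq transcript and holds at most 3 bases of a GENCODE one. Capitals mark the letters of any of 4 short motifs, searched on both strands: TTCNNNGAA (STAT), GGTGTG (T-box), TGTGGT (Runx) and TGANTCA (AP-1). The T-box and Runx letters can overlap, as they do in the window of Il2rg.
Gzma, chr13:113100982-113101231, minus strand: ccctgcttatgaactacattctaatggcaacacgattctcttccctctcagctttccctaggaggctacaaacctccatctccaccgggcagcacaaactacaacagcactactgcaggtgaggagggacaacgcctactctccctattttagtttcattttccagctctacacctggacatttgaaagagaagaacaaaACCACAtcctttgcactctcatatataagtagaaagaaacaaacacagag
Gzmb, chr14:56262335-56262584, minus strand: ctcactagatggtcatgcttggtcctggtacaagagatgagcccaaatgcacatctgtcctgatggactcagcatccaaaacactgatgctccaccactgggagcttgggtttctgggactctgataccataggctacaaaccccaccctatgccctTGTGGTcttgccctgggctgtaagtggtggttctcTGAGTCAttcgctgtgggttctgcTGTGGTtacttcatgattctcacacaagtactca
Prf1, chr10:61297586-61297835, plus strand: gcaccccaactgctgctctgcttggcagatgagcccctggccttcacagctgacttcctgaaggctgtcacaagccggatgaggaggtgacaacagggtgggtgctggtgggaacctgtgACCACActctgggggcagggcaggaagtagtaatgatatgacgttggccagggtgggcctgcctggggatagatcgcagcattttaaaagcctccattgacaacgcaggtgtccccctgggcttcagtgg
Ifng, chr10:118440796-118441045, plus strand: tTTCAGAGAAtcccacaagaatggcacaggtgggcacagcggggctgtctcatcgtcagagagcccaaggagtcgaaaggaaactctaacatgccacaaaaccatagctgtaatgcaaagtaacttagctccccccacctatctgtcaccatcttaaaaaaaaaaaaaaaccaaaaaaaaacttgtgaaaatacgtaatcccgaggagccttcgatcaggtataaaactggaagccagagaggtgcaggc

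Windows were found for 8 of the 10 genes, with 2 for Il15ra, and none was printed for Il15 or Il2rb. The Runx letters were in 6 of the 9 windows (Gzma, Gzmb, Prf1, Nkg7, Klrk1 and Il2rg) and in 14.0% of the 32851 promoter windows of the same length. They ended 45 bases before the start in Gzma and appeared at 2 places in Gzmb, where the AP-1 letters lay between them. The STAT letters were in 2 of the 9 windows (Ifng and Nkg7) and in 7.02% of all windows. The T-box letters were in 3 windows (16.3% of all) and the AP-1 letters in 2 (6.75% of all). A match of letters is a description of the sequence and not a binding site.

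In peritoneal cells, edgeR's quasi-likelihood test called 7733 of 14985 genes at an adjusted p below 0.05, which is 51.6% of the genes tested, 23.7% as higher and 27.9% as lower with β-NMN. All 10 genes passed the filter on low counts. Of these, 9 were called, 2 as higher and 7 as lower, and their median log2 fold change was −1.59, against −0.02 over all genes tested. In bulk RNA, fewer cells of a type and less RNA per cell cannot be told apart, and this holds for every level below.

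The ligand rose. Il15 (chromosome 8, 82331632 to 82403222) ran from 208 to 373 CPM in vehicle cells (median 275) and from 460 to 602 CPM in β-NMN cells (median 482). Every β-NMN library lay above every vehicle library. The log2 fold change was 0.82 (standard error (SE) 0.12), a 1.77-fold rise, with an adjusted p of 6.07e-05 in edgeR.

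The presenting chain rose less. Il15ra (chromosome 2, 11705290 to 11734317) ran from 261 to 435 CPM (median 362) in vehicle cells and from 406 to 518 CPM (median 447) with β-NMN. The highest vehicle library lay inside the β-NMN range, so the groups overlapped. This gave a log2 fold change of 0.40 (SE 0.12), with an adjusted p of 0.0126 in edgeR.

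The signalling chains fell, to very unequal degrees. Il2rb (chromosome 15, 78479256 to 78495271) ran from 29.4 to 124 CPM (median 67.5) in vehicle cells and from 6.55 to 9.50 CPM (median 8.31) in β-NMN cells. This was the largest change among the 10 genes, with no overlap between groups. The level was 8.63-fold higher in vehicle cells (log2 fold change −3.11, SE 0.25, adjusted p of 2.79e-07 in edgeR). Il2rg (chromosome X, 101264378 to 101268255), which is shared by the receptors of several cytokines, ran from 114 to 151 CPM in vehicle cells and from 96.6 to 103 CPM with β-NMN. The groups did not overlap, but the step was small, with a log2 fold change of −0.46 (SE 0.08, adjusted p of 0.000329 in edgeR). Of its exon bases, 30.5% are shared with the gene Gm20489 on the same strand, so reads from there may have been left out or shared in the counting.

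Of the granule genes among the 10, Prf1 (chromosome 10, 61297833 to 61304680) fell most. It ran from 9.41 to 34.9 CPM (median 19.4) in vehicle cells and from 1.98 to 3.22 CPM (median 2.42) with β-NMN. The lowest vehicle library lay well above the highest β-NMN library. Its log2 fold change was −3.03 (SE 0.25, adjusted p of 3.33e-07 in edgeR). Nkg7 (chromosome 7, 43437073 to 43438249) ran from 4.23 to 20.8 CPM (median 9.86) in vehicle cells and from 0.931 to 2.47 CPM (median 1.7) with β-NMN, again without overlap. Its log2 fold change was −2.61 (SE 0.32, adjusted p of 1.30e-05 in edgeR).

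The granzymes fell less than perforin. Gzma (chromosome 13, 113093825 to 113100981) ran from 25.8 to 143 CPM (median 58.3) in vehicle cells and from 6.21 to 22.9 CPM (median 19.8) with β-NMN. The groups were separate, although the lowest vehicle library was close to the β-NMN range. The log2 fold change was −1.88 (SE 0.38, adjusted p of 0.000768 in edgeR). Gzmb (chromosome 14, 56258838 to 56262260) ran from 21.8 to 141 CPM (median 62.2) in vehicle cells and from 11.5 to 29.9 CPM (median 23.5) with β-NMN, and here the groups overlapped at vehicle replicate 3. Its log2 fold change was −1.56 (SE 0.34, adjusted p of 0.00142 in edgeR). The granzyme transcripts shared no stretch of 150 bases with other genes of the annotation.

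Ifng (chromosome 10, 118441046 to 118445892) spread widely in vehicle cells, from 180 to 1325 CPM (median 603), against 133 to 256 CPM (median 197) with β-NMN. Vehicle replicate 3 lay within the β-NMN range and vehicle replicate 4, at 287 CPM, just above it. The fitted log2 fold change was −1.62 (SE 0.36, adjusted p of 0.00168 in edgeR). Of its exon bases, 25.9% are shared with Gm49751 on the same strand.

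Klrk1 (chromosome 6, 129610323 to 129623864) was the exception. It ran from 32.1 to 96.6 CPM (median 64.6) in vehicle cells and from 47.7 to 60.3 CPM (median 57.9) with β-NMN. The β-NMN libraries all lay inside the vehicle range. The log2 fold change was −0.19 (SE 0.21, adjusted p of 0.477 in edgeR).

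Without overlap between groups, 1 of the 10 genes was higher (Il15) and 5 were lower (Il2rb, Il2rg, Gzma, Prf1 and Nkg7), where 12.6% and 14% of all genes tested were. Exact permutation of the group labels (two-sided, on mean log2 CPM) gave a p of 0.00216, the smallest value that 6 against 6 libraries allow, for each of these 6 genes, and 0.725 for Klrk1. For Il15ra, Gzmb and Ifng, the exact permutation p was 0.00649, 0.0130 and 0.0152.

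**Figure D1:**
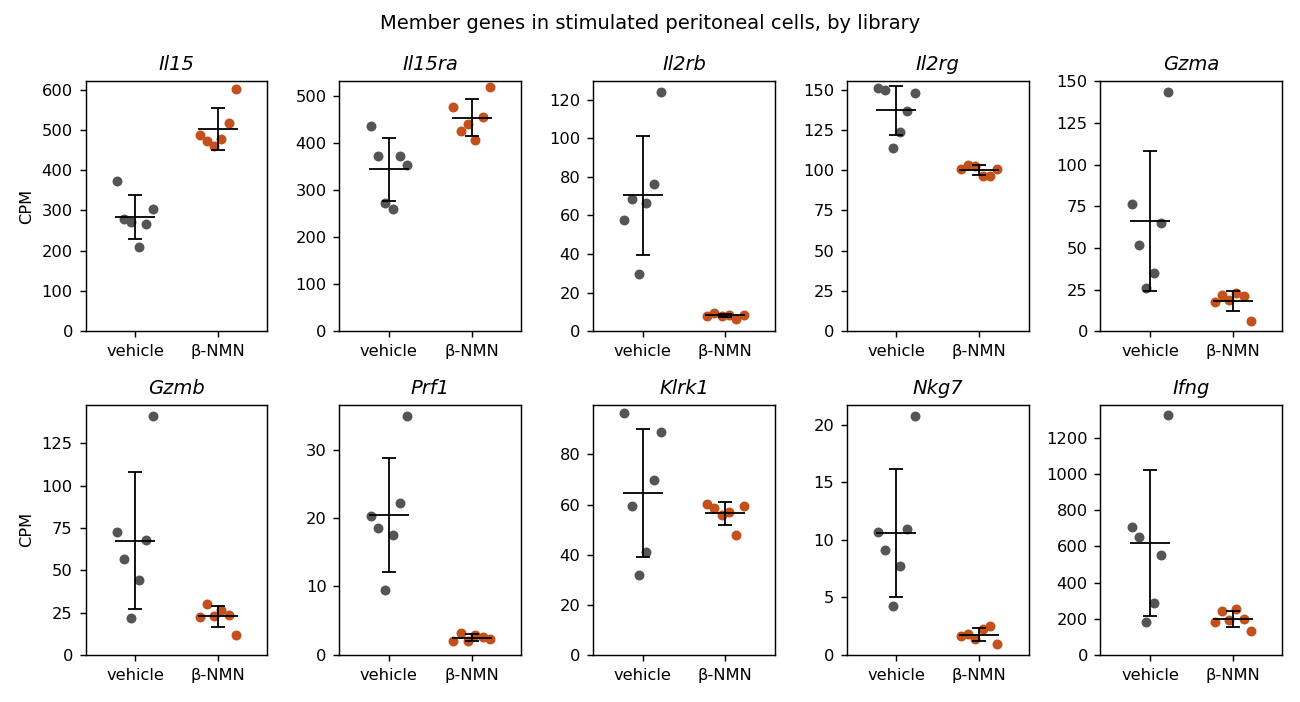
CPM of each of the 10 genes in stimulated peritoneal cells, with 1 point per library (6 vehicle in grey, 6 β-NMN in orange), and the mean with SD in black, on a linear axis from 0. Il15 lies higher in all β-NMN libraries, Il2rb, Prf1 and Nkg7 lie lower in all of them, and Klrk1 keeps within the vehicle range.

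The spread of the vehicle libraries was shared between genes. Vehicle replicate 6 was the highest for 6 of the 10 genes (Il2rb, Gzma, Gzmb, Prf1, Nkg7 and Ifng), and vehicle replicate 1 for the other 4. Vehicle replicate 3 was the lowest for 8 genes, all but Il15 and Il15ra. Without vehicle replicate 6 the log2 fold changes were −1.5 for Gzma, −1.21 for Gzmb and −1.25 for Ifng, and each was still called (adjusted p of 0.00110, 0.00211 and 0.00276 in edgeR). After the group means were subtracted, the log2 CPM of Gzma and Gzmb had a Pearson r of 0.96 over the 12 libraries, that of Il2rb and Prf1 of 0.90, and that of Il15 and Il15ra of 0.82. Klrk1 had its highest r with Il2rg (0.90), followed by Ifng (0.85), Il15ra (0.82), Gzmb (0.75) and Prf1 (0.73), and lower ones with Il2rb (0.71), Gzma (0.65), Nkg7 (0.64) and Il15 (0.63). Il15 and Il2rb had an r of 0.05. These are descriptions, since the points share library, depth and base composition.

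By the same measure, the nearest genes were sought among those averaging 1 or more on the log2 CPM scale. Ccr2 (0.98) was nearest to Nkg7, followed by Herc3 and Eomes (0.95 each), and Il12rb2 (0.96) was nearest to Prf1. Il18rap (0.96) was nearest to Ifng and, like Herc3, stood at 0.97 with Gzmb, to which Pecam1 (0.98) was nearest. Herc3 itself was not called (log2 fold change 0.25, adjusted p of 0.289 in edgeR). Rab9 (0.98) was nearest to Il15, B430306N03Rik (0.97) to Il15ra, Polr1a (0.99) to Il2rb, Wdcp (0.97) to Il2rg and Tmem209 (0.98) to Klrk1. Gzmb (0.96) was nearest to Gzma.

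Per length, as mean CPM per kb of exon, the order of levels changed with treatment. In vehicle cells Ifng stood first at 477 ± 312, followed by Il15 at 126 ± 23.9, Il15ra at 77.4 ± 14.9, Gzma at 65.7 ± 41.8, Il2rg at 57.5 ± 6.44 and Gzmb at 47.0 ± 28.2 (SD, n = 6). Il2rb (16.4 ± 7.18), Nkg7 (11.6 ± 6.08), Klrk1 (9.0 ± 3.56) and Prf1 (7.92 ± 3.22) were lower (SD, n = 6). From Il15ra down to Prf1, the mean ± SD ranges of neighbours in this order overlapped. In β-NMN cells Il15 stood first at 222 ± 23.2, followed by Ifng at 155 ± 34.2 and Il15ra at 102 ± 8.98 CPM per kb (SD, n = 6). Il2rg (41.9 ± 1.21), Gzma (17.9 ± 6.07), Gzmb (15.9 ± 4.33) and Klrk1 (7.87 ± 0.643) came next, and Il2rb (1.90 ± 0.230), Nkg7 (1.90 ± 0.615) and Prf1 (0.971 ± 0.192) last. There, among neighbours, only the ranges of Gzma and Gzmb and those of Il2rb and Nkg7 overlapped.

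Markers of several cell types moved with these genes, and their counts are to be read beside the 23.7% and 27.9% of all genes called as higher and lower. The summed level of 6 NK cell markers was 19.3 to 88.3 CPM in vehicle cells and 8.91 to 13.4 CPM with β-NMN, and all 6 were called as lower, among them Ncr1 (log2 fold change −1.89, adjusted p of 0.000184 in edgeR) and Klrb1c (−3.64, 3.07e-07). Of 10 T cell genes, 9 were called as lower, with Cd247 (−2.62) having the smallest adjusted p at 2.79e-07, and 1, Lck, as higher (0.67, 0.00243). Their sum was 38.8 to 91.4 CPM in vehicle and 44.9 to 64.4 CPM in β-NMN cells. Lck alone made up most of it, at 29.1 CPM on average in vehicle and 46.3 CPM in β-NMN cells. Of 5 B cell genes, 3 were lower and 2 not called, and the sum was 37.1 to 189 CPM against 25.9 to 92.3 CPM. Of 5 dendritic cell genes, 3 were lower and 1 was higher (sum 32.7 to 53.0 against 14.1 to 18.3 CPM), and of 6 neutrophil genes 5 were lower and 1 was higher (477 to 989 against 327 to 456 CPM). Of 6 mast cell genes, 2 were lower, Kit and Ms4a2, and 4 were not called (sum 128 to 326 against 90.7 to 166 CPM). Of 6 macrophage genes, 3 were higher, Lyz2, Cd68 and Mrc1, and none was lower. The macrophage sum was 5442 to 8243 CPM (median 6419) in vehicle and 9986 to 11820 CPM (median 11056) in β-NMN cells, without overlap, and it moved with Il15 and Il15ra, which macrophages express. Its part in their rise was not tested. Of 4 endothelial genes 3 were tested, of which 2 were lower, Pecam1 (log2 fold change −1.37, adjusted p of 0.00123 in edgeR) and Cdh5 (−0.38, 0.0407), and the sum was 63.2 to 143 CPM in vehicle and 65.0 to 116 CPM in β-NMN cells. No marker of these lists was at 0 in all peritoneal libraries of a group.

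The NK cell marker sum was highest in vehicle replicate 6 and lowest, among vehicle libraries, in vehicle replicate 3, as were 6 of the 10 genes. The T cell, B cell, mast cell, dendritic cell and endothelial sums were highest and lowest in the same vehicle libraries. This order was therefore not particular to NK cell markers. The level of each gene was also divided by the NK cell marker sum of its own library, a measure chosen after the values were seen and given with no test. Relative to these markers Prf1 was 0.395 to 0.488 in vehicle and 0.184 to 0.305 in β-NMN cells, and Il2rb was 1.29 to 1.73 and 0.627 to 0.956. Both were lower in all β-NMN libraries. Ncr1 weighed most in the sum, at 24.0 CPM on average in vehicle and 6.51 CPM in β-NMN cells. Its log2 fold change was −1.89, that of Klra8 −1.89, Klrd1 −2.03, Klrc1 −2.59, Eomes −2.66 and Klrb1c −3.64. Prf1 (−3.03) and Il2rb (−3.11) fell less than Klrb1c, so their relation to NK cell markers depends on the marker. The relative levels of Gzma (0.909 to 1.7 and 0.697 to 2.05), Gzmb (1.13 to 1.63 and 1.29 to 2.84), Nkg7 (0.201 to 0.238 and 0.104 to 0.237) and Ifng (7.44 to 15.8 and 15.0 to 23.0) overlapped between groups. Those of Klrk1 (1.01 to 2.16 and 4.25 to 6.69), Il15, Il15ra and Il2rg were higher in all β-NMN libraries. Against the sum of 8 T cell genes (without Lck and Cd247), Prf1, Il2rb and Nkg7 were lower in all β-NMN libraries. The other genes kept their relation except Il2rg, which overlapped, and the difference of Gzma turned from 0.24 to −0.31 on the log2 scale. Lck was the only T cell gene called as higher and had the highest level of the list. The sum with it was not used as a divisor, so these relations hold for this choice of genes only. What part the other cell types had in these changes was not tested.

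**Figure D2:**
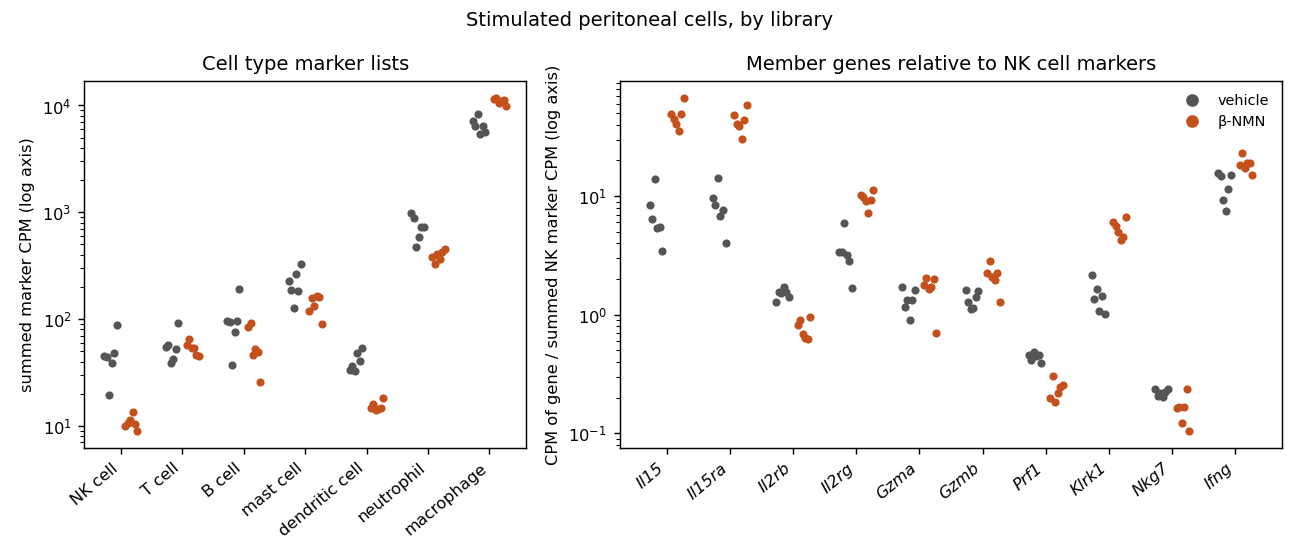
Left, summed CPM of each cell type marker list, and right, CPM of each of the 10 genes divided by the summed CPM of the 6 NK cell markers, both on log axes with 1 point per peritoneal library (vehicle grey, β-NMN orange). The NK cell sum falls from 19.3 to 88.3 CPM to 8.91 to 13.4 CPM, and after division Il2rb and Prf1 lie lower and Klrk1 higher in all β-NMN libraries. Ncr1 has the highest level of the 6 NK cell markers and weighs most in their sum.

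The other genes of the pathway were read from 6 lists, of whose 69 entries 65 were in the tables and 55 were tested in peritoneal cells. Of these, 38 were called, 9 as higher and 29 as lower, beside the 51.6% of all genes. Among 10 cytokines and receptors of the common γ-chain family, 7 were tested, 4 were lower and none was higher (median log2 fold change −0.57). Il2ra, the α chain of the IL-2 receptor, fell from 152 ± 50.2 to 42.6 ± 4.63 CPM (SD, n = 6 each; log2 fold change −1.83, adjusted p of 1.87e-06 in edgeR). Il21r (−2.11), Il4ra (−0.57) and Il9r (−0.86) fell as well, whereas Il7r was at 0.13 (adjusted p of 0.346).

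Of 12 genes of the JAK-STAT chain below the receptor, 7 were lower and 5 were not called (median −0.51). Cish, a feedback inhibitor of STAT5 signalling, fell from 72.9 ± 15.7 to 40.5 ± 4.76 CPM (SD, n = 6 each; log2 fold change −0.85, adjusted p of 0.00012 in edgeR). Socs3 (−0.98), Pim1 (−0.49) and Ptpn2 (−0.54) also fell, and Bcl2, a survival gene, fell by 1.55 on the log2 scale. Socs3 and Pim1 averaged 3103 and 1904 CPM in vehicle cells, where Il2rb averaged 70.3 CPM. In which cells and below which receptor these genes fell was not tested. The kinases Jak1 (0.06) and Jak3 (0.22) and the factors Stat5a (0.16) and Stat5b (0.05) had adjusted p from 0.101 to 0.785 in edgeR and were not called.

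Of 8 other granzymes 2 were tested, and both fell. Gzmc fell from 4.60 ± 2.33 to 0.363 ± 0.194 CPM (SD, n = 6 each; log2 fold change −3.61, adjusted p of 4.25e-06 in edgeR), and Gzmm had a log2 fold change of −0.99. Among 11 tested genes of granule loading, release and death ligands, 4 were lower, 2 were higher and 5 were not called (median −0.02). Fasl, the ligand of the death receptor Fas, fell by 2.87 on the log2 scale, and Ctsw, a protease of cytotoxic cells, by 2.38. Serpinb9, the inhibitor of granzyme B, fell by 1.5 on the log2 scale. Lamp1, a lysosome membrane gene expressed in most cells, rose from 938 ± 123 to 1849 ± 130 CPM (SD, n = 6 each; log2 fold change 0.98, adjusted p of 1.85e-06 in edgeR). The release genes Unc13d, Stx11, Stxbp2 and Rab27a were not called, with adjusted p from 0.129 to 0.843.

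Of 6 tested adaptors and ligands of NKG2D, 5 rose and none fell (median 0.68). Tyrobp, an adaptor that macrophages also express, rose from 244 ± 32.6 to 415 ± 47.8 CPM (SD, n = 6 each; log2 fold change 0.76, adjusted p of 3.70e-05 in edgeR), and Hcst, the other adaptor, had a log2 fold change of 0.40. The ligands Raet1d (0.77), H60b (1.56) and Ulbp1 (0.51) rose too, at levels of at most 17.6 CPM on average.

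Of 17 inducers, receptors and factors of interferon-γ, 12 fell, 2 rose and 3 were not called (median −1.52). The subunits of interleukin-12, Il12a (131 ± 33.4 to 44.7 ± 13.7 CPM) and Il12b (43.2 ± 17.7 to 9.92 ± 1.10 CPM), fell by 1.55 and 2.12 on the log2 scale (SD, n = 6 each). Il12rb2 (−1.97), Il18rap (−1.75), Il18r1 (−1.52), the transcription factors Tbx21 (−2.62), Eomes (−2.66) and Runx3 (−1.52), and Stat4 (−2.15) fell too. Eomes also belongs to the NK cell markers. Ifngr1, a chain of the interferon-γ receptor, fell from 74.4 ± 6.35 to 27.9 ± 3.12 CPM (SD, n = 6 each; log2 fold change −1.42, adjusted p of 3.21e-08 in edgeR), the smallest adjusted p of the 6 lists. Il27, a cytokine subunit, was among those that rose (0.69). Irf1, a gene that interferon-γ induces, was at −0.07 (adjusted p of 0.715) and Il18 at −0.23 (0.25).

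In septic hearts and lungs edgeR called 0 of 16245 and 0 of 17008 genes (0% in each), while 1837 and 301 genes had an unadjusted p below 0.05. DESeq2 called 262 and 9 genes, none of them among the 10. Of the 10 genes, 4 passed the low-count filter in hearts (Il15, Il15ra, Il2rb and Il2rg) and 9 in lungs (all but Ifng). Of the 6 pathway lists, 39 genes were tested in hearts and 49 in lungs, of which 9 and 5 had an unadjusted p below 0.05. With 3 libraries per group, an exact permutation test cannot give a p below 0.1.

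In hearts, Il2rb had 0.415, 0.903 and 0.553 CPM in vehicle replicates 1 to 3 and 0.261, 0.277 and 0.279 CPM in β-NMN replicates 1 to 3. All β-NMN hearts lay below all vehicle hearts, at 7 to 48 reads per library. The log2 fold change was −1.18 (SE 0.38), with an adjusted p of 0.435 in edgeR. It was −0.81 without vehicle replicate 2. Il2rg had 4.36, 3.05 and 4.45 CPM in vehicle and 4.65, 4.62 and 4.65 CPM in β-NMN hearts, also without overlap but in the higher direction (log2 fold change 0.23, adjusted p of 0.593 in edgeR, and 0.07 without vehicle replicate 2). Of all heart genes, 11.5% were lower and 11.6% were higher without overlap. Il15 had 21.6, 5.46 and 18.4 CPM in vehicle and 15.98, 15.9 and 14.1 CPM in β-NMN hearts. The vehicle group held both the highest and the lowest value, the lowest in vehicle replicate 2, and the log2 fold change was 0.02 (SE 0.45). Without that library it was −0.40, with an adjusted p of 0.319 in edgeR. Il15ra was at 14.4 to 22.5 CPM over all hearts.

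Gzma, Prf1, Gzmb, Klrk1, Nkg7 and Ifng were nearly absent from hearts. This did not hold for Gzmm, a granzyme of the pathway lists, which averaged 4.34 CPM in vehicle and 4.60 CPM in β-NMN hearts. Gzma had 3 to 19 reads, Prf1 1 to 22, Gzmb 0 to 14, Klrk1 0 to 14 and Nkg7 0 to 5 reads per heart, and their levels were at most 0.414 CPM. Ifng had 1 read in the 6 hearts together and 5 reads in the 6 lungs, with at most 3 in any library. A count of 0 allows up to 0.112 CPM in hearts and 0.433 CPM in lungs, taking 3 reads in the library of each organ where a read weighs most (β-NMN replicate 1 and vehicle replicate 2), by counting error only.

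In lungs, Prf1 had 4.52, 6.21 and 2.86 CPM in vehicle replicates 1 to 3 and 2.13, 2.20 and 2.86 CPM in β-NMN replicates 1 to 3. The highest β-NMN lung reached the lowest vehicle lung. Its log2 fold change of −0.90 (SE 0.41, adjusted p of 0.969 in edgeR) was the largest in lungs among the 9 tested members, and it was −0.62 without vehicle replicate 2. Gzma had 21.3, 12.4 and 9.49 CPM in vehicle and 13.0, 8.0 and 11.6 CPM in β-NMN lungs, and Gzmb had 5.97, 0.867 and 3.36 against 1.89, 2.32 and 3.52 CPM. Both granzymes overlapped between groups. Klrk1 had 2.12, 4.91 and 1.49 CPM in vehicle and 1.40, 1.78 and 2.02 CPM in β-NMN lungs. Vehicle replicate 2 had the highest vehicle level of Klrk1, Prf1 and Il2rb (7.37 CPM) and the lowest of Il15, Il15ra, Il2rg, Gzmb and Nkg7. Without it, the log2 fold change of Klrk1 moved from −0.67 to −0.06, and that of Gzmb from −0.43 to −0.85. No gene of the 9 was separate between groups, beside 4.47% (higher) and 3.75% (lower) of all lung genes. The adjusted p of the 9 genes ran from 0.969 to 0.991. The NK cell marker sum was 3.03 to 5.33 CPM in vehicle and 4.77 to 6.11 CPM in β-NMN lungs. That of macrophages was 1369 to 4286 CPM and 4991 to 5461 CPM, and that of dendritic cells 42.0 to 75.6 CPM and 77.0 to 97.2 CPM. These 2 sums did not overlap between groups, whereas the NK cell, T cell, B cell, mast cell and neutrophil sums did. No gene of these lists was called.

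**Figure D3:**
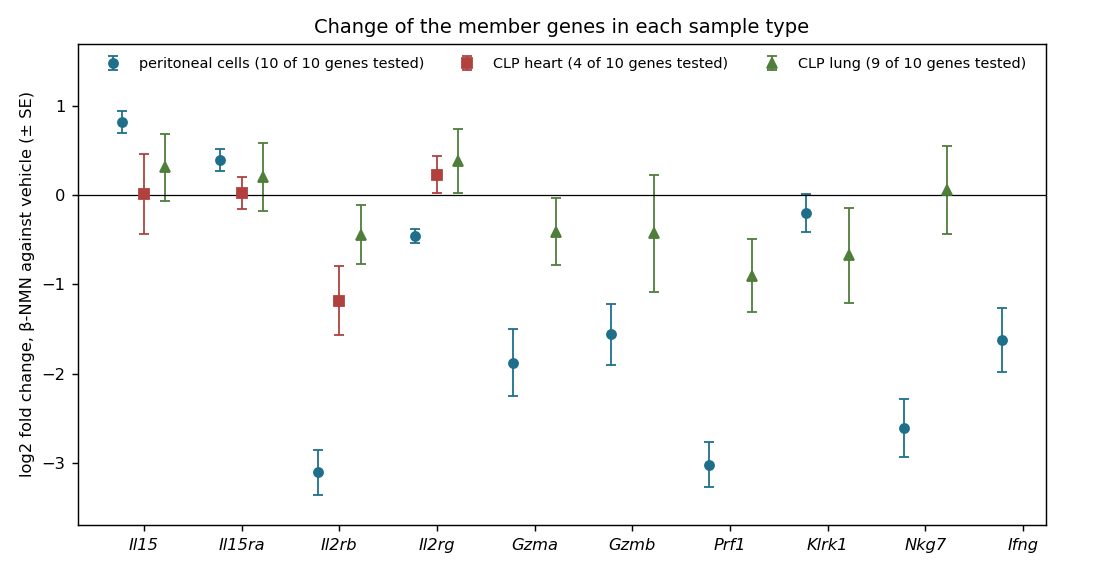
Log2 fold change of β-NMN against vehicle with its SE for each gene that passed the low-count filter, in peritoneal cells (circles, 6 libraries per group), CLP hearts (squares, 3 per group) and CLP lungs (triangles, 3 per group). In peritoneal cells 2 genes lie above 0 and 8 below, down to −3.11 for Il2rb, and in hearts and lungs no gene passed the test.

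Whether β-NMN acted differently on lungs and hearts was tested as an interaction of organ and treatment in the 12 CLP libraries. The test called 0 of 18318 genes (0%), with 797 at an unadjusted p below 0.05 and 14 called by DESeq2, and none of the 9 genes tested. For Il2rb the difference was 0.76 (SE 0.50) on the log2 scale, and for Il15 it was 0.28 (SE 0.59). The effects in peritoneal cells came from another experiment and were not tested against those in the organs.

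The level itself differed between the organs for all 9 tested genes, beside 64.8% of all genes (35.9% higher in lungs and 28.9% higher in hearts). Il15 and Il15ra were higher in hearts, and the other 7 were higher in lungs. Il15 averaged 15.3 ± 5.46 CPM in hearts and 2.21 ± 0.434 CPM in lungs (SD, n = 6), and it was 10.9-fold higher in hearts in the shared fit (log2 difference of lung minus heart −3.45, SE 0.32, adjusted p of 2.24e-06 in edgeR). Il15ra averaged 19.2 ± 2.76 and 7.38 ± 1.95 CPM (log2 difference −2.03). Gzma had the largest difference, with 0.161 ± 0.0948 CPM in hearts and 12.6 ± 4.63 CPM in lungs (log2 difference 5.61, SE 0.43, adjusted p of 4.03e-07 in edgeR). Nkg7 (4.88), Klrk1 (4.5), Gzmb (4.44), Prf1 (3.47) and Il2rb (2.88) followed, and Il2rg was the closest (1.20, adjusted p of 0.000749 in edgeR). In CPM scaled within each organ, none of the 9 tested genes overlapped between the 6 hearts and the 6 lungs, and overlap on a scale shared by both organs was not examined. Ifng, which was not tested, was at 0 in 5 hearts and 3 lungs.

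CPM were scaled within each organ, whereas the fits were scaled across both. Scaling by library size alone moved the median log2 difference of all genes from 0.14 to 0.82 and the share of calls higher in lungs from 55.4% to 78.5%. Il15 was then at −2.72 and Il15ra at −1.34, and the other 7 genes stayed higher in lungs. The summed NK cell markers were 0.169 to 0.372 CPM over the hearts and 3.03 to 6.11 CPM over the lungs, and the T cell genes 1.43 to 2.60 and 13.6 to 43.9 CPM. Whether the number of lymphocytes accounts for the higher levels in lungs was not tested.

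**Figure D4:**
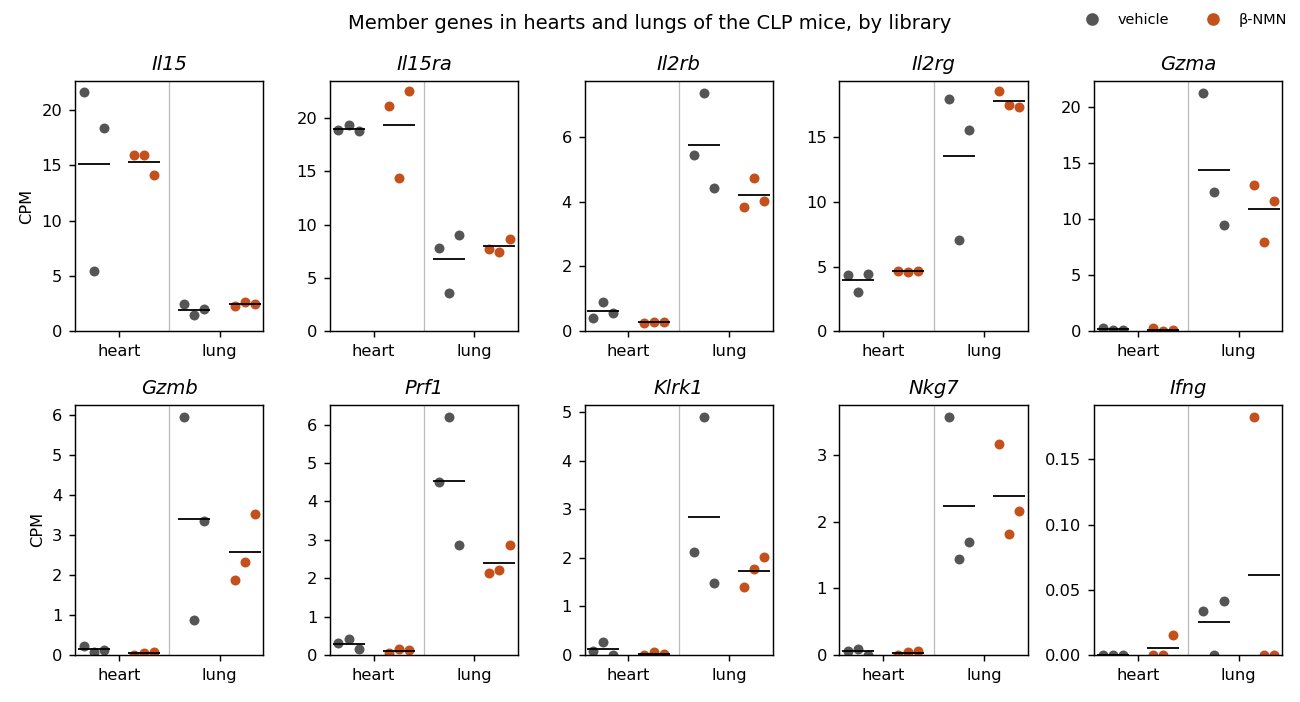
CPM of each of the 10 genes in hearts (left of the line) and lungs (right of the line) of the CLP mice, with 1 point per library (3 vehicle in grey, 3 β-NMN in orange) and the mean as a black dash, on linear axes from 0. Il15 and Il15ra lie higher in all hearts, 7 genes lie higher in all lungs, and Ifng is at most 0.183 CPM.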

How the data were processed

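Poly(A) RNA of 12 peritoneal, 6 heart and 6 lung libraries was sequenced on a NovaSeq. The authors deposited raw read counts per gene symbol, made with STAR (2.7.3a in the submitters' processing notes) against mm10 and featureCounts 2.0.0. Annotation and strandedness are not given in the sources used here. The 10 genes and all lists were chosen with earlier results of these data known.

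edgeR 4.0.16 (R 4.3.3) was run within each tissue: filterByExpr, TMM factors and the quasi-likelihood F-test, with Benjamini-Hochberg adjustment over all genes tested and a threshold of 0.05. The 12 CLP libraries were fitted together for the differences between organs, and both organs of each mouse pair these libraries. CPM used TMM-scaled totals within a tissue, and log2 CPM added a prior count of 2. Exact permutation tests of single genes used scipy 1.17.1. Alternatives were DESeq2 1.42.0 and its size factors, library size alone, no filter, the newer edgeR form, limma-voom (limma 3.58.1) with quality weights, replicate blocks and leaving out each library. Of each pathway list, up to 4 genes with the smallest p, and others for contrast after their values were seen, were named, and all 10 members. Within a tissue, libraries are assumed to be separate mice, and p-values measure the spread between them. The shared organ fit holds 2 libraries of each mouse and treats them as separate, with the mouse as a block as an alternative. Gene positions and exon lengths are those of GENCODE M21 (GRCm38). A gene of the pathway lists is counted but not reported by name here.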

Additional observations from a re-analysis of the deposited data

Results flagged for a closer look

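In stimulated peritoneal cells, 3 of the 20 groups of 6 libraries examined held a value far from the rest. For independent groups, chance gives about 1 in 20. These groups share libraries, and Gzma and Gzmb, flagged in the same library, had a Pearson r of 0.96. The count can therefore not be set against chance. Gzma in β-NMN replicate 6 was at 6.21 CPM, against 17.5 CPM in the next library, a gap of 0.794 of the whole range on the log2 scale. Gzmb in the same library was at 11.5 CPM, against 22.3 CPM, a gap of 0.69. Klrk1 in β-NMN replicate 5 was at 47.7 CPM, against 55.8 CPM, a gap of 0.668.

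Il2rg was lower in all β-NMN libraries than in all vehicle libraries in peritoneal cells and higher in all of them in hearts. Of all genes tested, 14% were lower without overlap in peritoneal cells and 11.6% were higher without overlap in hearts. In hearts the adjusted p of Il2rg was 0.593 in edgeR, and its log2 fold change was 0.07 without vehicle replicate 2. The log2 fold changes differed by −0.69 (peritoneal minus heart). The difference was not tested, since the samples come from separate experiments.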

How the results depend on the processing

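In peritoneal cells 9 of the 10 genes were called under each of the 19 alternatives, all in the same direction, and 36 to 39 genes of the pathway lists. In hearts, lungs and the difference between organs, no member was called under any alternative, and all 9 differed in level between organs under each. Genes of the pathway lists were called in hearts by DESeq2 (3, Socs3, Socs1 and Stx11) and without vehicle replicate 2 (1, Socs3); the cause was not tested. Numbers did not pair the libraries: deviations of same-numbered libraries correlated at −0.17 to 0.13 in peritoneal cells, 0.07 to 0.24 in hearts and −0.52 to 0.30 in lungs. With the replicate block, 9 members and 36 list genes were called in peritoneal cells and 0 of either in hearts and lungs, and 7010 genes in place of 7733 in peritoneal cells. With the mouse as a block, 9 members differed in level between organs and 0 in effect.

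Of the log2 fold changes and organ differences, signs turned only where the gene was not called in that comparison. In hearts, Il15 moved from 0.02 to −0.040 with library size alone, which shifts the median of all heart genes by −0.14, and to −0.35 with limma-voom, and ran from −0.40 to 0.37 without each library. Il15ra moved from 0.02 to −0.11 (library size alone), −0.029 (limma-voom) and, with the replicate block, −0.0012, and ran from −0.10 to 0.20. In lungs, where library size alone shifts the median by 0.12, Nkg7 was −0.39 with limma-voom and −0.19 to 0.60 without each library, Il15ra −0.079 to 0.47, Gzma −0.63 to 0.010 and Gzmb −0.85 to 0.25. For the difference between organs, Gzma was 0.16 with library size alone and −0.31 to 0.30 without each mouse, Il15ra −0.13 to 0.44, Il2rg −0.0095 to 0.32 and Nkg7 −0.23 to 1.25. Lung depth limits genes near 1 CPM. The relative levels against NK cell markers were chosen after the data were seen, and leaving out each library kept the sign of each.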

Other observations

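In hearts, the genes of the pathway lists with the smallest unadjusted p included feedback inhibitors of cytokine signalling. Socs3 had 143 ± 87.8 CPM in vehicle and 28.7 ± 2.75 CPM in β-NMN hearts, with a log2 fold change of −2.32, and Socs1 had 3.89 ± 1.78 and 1.14 ± 0.475 CPM, with −1.74 (SD, n = 3 each). Their adjusted p was 0.435 in edgeR, as for Stx11 (−1.47), Srgn (−0.45) and Il4ra (−1.23). The neutrophil marker sum was 18.5 to 33.2 CPM in vehicle and 12.4 to 13.8 CPM in β-NMN hearts. The dendritic cell, endothelial and cardiomyocyte sums were higher in all β-NMN hearts, and the NK cell, T cell, B cell, mast cell and macrophage sums overlapped. No marker gene was called, and the part of cell numbers in these changes was not tested. In lungs, Nfil3, a factor needed for NK cell development, had 37.7 ± 7.57 and 20.1 ± 0.459 CPM (SD, n = 3 each; log2 fold change −0.91, adjusted p of 0.969 in edgeR), and Socs1 had a log2 fold change of −1.17 with the same adjusted p.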
